A study of Mus musculus with 6 samples.

Results

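The MHC class I antigen presentation genes examined here were H2-K1, H2-D1, B2m, Tap1, Tap2, Tapbp, Psmb8, Psmb9, Psmb10 and Nlrc5. These 10 genes were chosen by symbol for their place in the pathway, by a rule that takes no measured value but was set with earlier results of these data known, and matched to the Ensembl identifiers of the deposited tables. All 10 were found among the 15663 genes listed. The RNA came from RPE-choroid, the retinal pigment epithelium together with the vascular choroid beneath it. There were 3 control mice, which were healthy and not lasered, and 3 mice with subretinal fibrosis (SRF), each sequenced as a separate library. All were male C57BL/6J mice of 8 to 10 weeks kept in specific pathogen-free housing. SRF was produced with a laser in 2 stages, with 4 burns per eye, a repeat burn on each lesion after 10 days, and tissue collected 20 days after that repeat. The burns touched 4 places in the eye while RPE-choroid as a whole was sequenced, so each SRF library holds lesion and surrounding tissue together.

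Class I molecules show peptides from inside the cell to CD8 T cells and are read by receptors on natural killer cells and myeloid cells. Proteasomes cut proteins into peptides, the TAP transporter carries these into the endoplasmic reticulum, and tapasin holds the empty class I molecule beside TAP until a peptide fits. The molecule is a heavy chain paired with beta-2 microglobulin. Interferons raise many of these genes through induced transcription factors, and Nlrc5 acts as their transactivator together with the RFX complex. The eye is known for low class I display in some of its tissues.

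None of the 10 genes passed the test between SRF and control. The edgeR log2 fold changes (SRF over control) ran from -0.29 for B2m to 0.18 for Tap1, with a median of 0.05 beside 0.001 over all 13454 genes tested, and 6 were above 0 and 4 below, beside 50.3% of all genes above 0. None of the 10 reached 0.5 either way on that scale, beside 8.07% of all genes. The edgeR quasi-likelihood test with Benjamini-Hochberg adjustment called 0 of the 10, and 0% of all genes tested were called, a call needing an adjusted p under 0.05 and a log2 fold change of 0.5 or more in size. At an unadjusted p under 0.05 edgeR gave 0 of the 10, beside 7.01% of all genes (4.16% higher and 2.85% lower in SRF). DESeq2 called 0 of the 10 as well, beside 1.14% of all genes (0.803% higher and 0.334% lower in SRF). At an unadjusted DESeq2 p under 0.05 there was 1 of the 10, beside 973 of all 13454 genes tested. The 95% interval of the fold change lay within 0.5 either way on the log2 scale for 4 of the 10 genes and within 1 for 9. A miss of the threshold does not show that the levels were equal, and these intervals give the sizes of change that remain possible.

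Counts on genes summed to between 13667310 and 24356023 per library, so 3 counts stood for 0.123 to 0.22 CPM (counts scaled to a common library size). The labelled tissue held its markers, with 10 RPE genes summing to between 29407 and 52255 CPM. Photoreceptor genes, which belong to the neural retina and not to RPE-choroid, summed to 13689 CPM in control mouse 1 and 13230 in SRF mouse 3, against 791 to 1882 in the other libraries. The RPE list was lower in SRF, with sums of 44050 to 52255 CPM in control and 29407 to 38995 in SRF mice. Macrophage and microglia markers were higher, with 14 of 15 above control and sums of 1570 to 2048 CPM in control and 3565 to 5091 in SRF mice. DESeq2 called 7 of the 15, beside 1.14% of all genes. Lyz2 alone held 743 to 1004 CPM of these sums in control and 2078 to 3305 CPM in SRF mice. The part of these cell types in the values below was not tested, and in bulk RNA fewer cells of a type cannot be told apart from less RNA per cell.

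The promoters of class I heavy chains and of B2m are shown to compare their letters. The 180 bases before the RefSeq start (GRCm38.p6, 5′ to 3′) are printed for H2-K1, H2-D1 and B2m, which make the classical molecule, and for the relatives H2-Q6 and H2-Q7, of which H2-Q7 had the lowest p among the other heavy chains. Capitals mark matches on either strand to GGGGATTCCCC (a kappa B palindrome), AGTTTCACTT (the interferon response letters of class I promoters), GAAANNGAAA (the core of an interferon-stimulated response element), CCAAT and TGACG. The first 2 strings were read from the H2-K1 promoter and GAAANNGAAA from that of B2m, so their presence there is given by that choice.
H2-K1, chr17:34000348-34000527, minus strand: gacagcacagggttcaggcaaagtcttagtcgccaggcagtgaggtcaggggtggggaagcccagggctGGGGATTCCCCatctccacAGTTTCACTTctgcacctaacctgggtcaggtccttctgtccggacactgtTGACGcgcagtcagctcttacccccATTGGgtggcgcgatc
H2-D1, chr17:35262914-35263093, plus strand: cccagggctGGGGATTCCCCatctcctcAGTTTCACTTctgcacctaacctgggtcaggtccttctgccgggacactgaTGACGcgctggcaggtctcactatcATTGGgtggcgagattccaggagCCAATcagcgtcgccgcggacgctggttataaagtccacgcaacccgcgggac
H2-Q6, chr17:35424670-35424849, plus strand: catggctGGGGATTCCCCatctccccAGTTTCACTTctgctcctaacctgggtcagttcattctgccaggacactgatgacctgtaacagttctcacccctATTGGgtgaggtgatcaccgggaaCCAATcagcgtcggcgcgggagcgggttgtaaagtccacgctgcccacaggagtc
H2-Q7, chr17:35438975-35439154, plus strand: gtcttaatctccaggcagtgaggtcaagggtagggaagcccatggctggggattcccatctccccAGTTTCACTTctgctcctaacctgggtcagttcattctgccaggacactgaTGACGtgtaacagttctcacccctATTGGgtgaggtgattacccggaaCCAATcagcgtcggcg
B2m, chr2:122147507-122147686, plus strand: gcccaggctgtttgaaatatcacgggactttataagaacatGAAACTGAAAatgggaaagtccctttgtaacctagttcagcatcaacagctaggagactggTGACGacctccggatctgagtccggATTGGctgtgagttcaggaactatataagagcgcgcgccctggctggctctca
The palindrome stood in the H2-K1, H2-D1 and H2-Q6 sequences, and AGTTTCACTT in these and H2-Q7. At the matching place H2-Q7 held ggggattccc, the palindrome without its last letter, which is not a full match and stays in lower case. B2m carried GAAANNGAAA in their place. In H2-K1 the palindrome began at base -111 from the start, and in H2-D1 at base -171, since the annotated starts lie at different places in otherwise similar sequence. The start of H2-K1 was the first of 2 in the table.

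Among 32851 promoter windows of 300 bases, read on both strands, 0.0304% held GGGGATTCCCC and 0.14% held AGTTTCACTT. GAAANNGAAA was in 3.44%, CCAAT in 37.4% and TGACG in 20.8%. Of the 10 class I genes, 8 had a window in the table, Tap2 and Nlrc5 being the other members. CCAAT was found in 6 of the 8 (H2-K1, H2-D1, B2m, Tap1, Tapbp and Psmb9), and TGACG in 5 of them, the same genes without Tapbp. TTCNNNGAA, the gamma-activated site, was in the Psmb8 window and in 8.3% of all windows. A match is a string of letters and not a measured binding site.

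Scaled by transcript length, the levels of the pathway genes spanned a wide range in this tissue. B2m was highest, with a median of 1220 FPKM (fragments scaled by transcript length and by library) over the 6 libraries and rank 37 of all genes listed. H2-D1 followed with 473 FPKM at rank 118, then H2-K1 with 165, Tapbp with 109, Psmb8 with 54.7, Psmb10 with 32.8 and Psmb9 with 14.9. Tap2 had 9.65 FPKM and Tap1 9.04. Nlrc5 was lowest, with 0.815 FPKM at rank 13417. In this order only Tap2 and Tap1 overlapped in range over the libraries, and every other neighbour was separate.

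**Figure D1:**
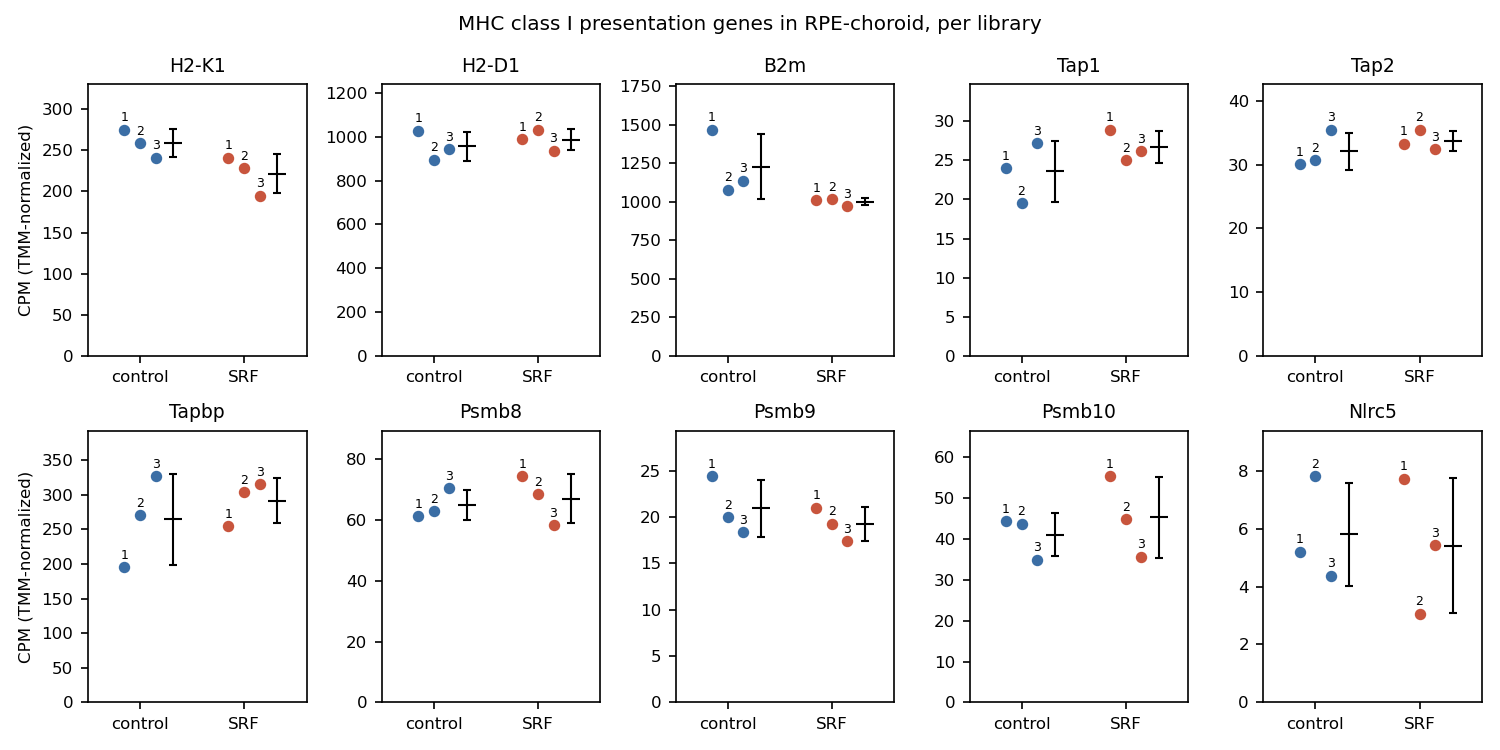
Level of each class I gene in each library, in CPM, with mouse numbers beside the points and bars for the mean ± SD of 3 mice per group. Control and SRF points intermix in 8 of the 10 panels, and in B2m all SRF mice lie below all controls.

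H2-K1 and H2-D1 encode the classical class I heavy chains of this strain. H2-K1 (ENSMUSG00000061232, chr17:33996017-34000347, minus strand, GRCm38) had 275, 259 and 241 CPM in control mice 1, 2 and 3, and 241, 228 and 195 CPM in SRF mice. The SRF values lay below the control values by a margin at the border smaller than the rounding, and in FPKM the groups overlapped, with 158 in control mouse 3 and 170 in SRF mouse 1. The edgeR log2 fold change was -0.22 (SE 0.12, 95% interval -0.52 to 0.07, adjusted p = 0.836). The highest and lowest H2-K1 values were in the photoreceptor-rich libraries, control mouse 1 and SRF mouse 3: the log2 fold change was -0.14 without SRF mouse 3 and -0.09 without both.

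H2-D1 (ENSMUSG00000073411, chr17:35262730-35267499, plus strand) had 1028, 896 and 944 CPM in control and 988, 1032 and 936 CPM in SRF mice. The groups overlapped, and the highest library was only 1.15 times the lowest, the narrowest spread among the 10. Its log2 fold change was 0.04 (SE 0.11, interval -0.21 to 0.30, edgeR quasi-likelihood adjusted p = 1). The H2-D1 to H2-K1 ratio, in FPKM, was 2.65, 2.48 and 2.85 in control and 2.86, 3.23 and 3.48 in SRF mice. These ratios were higher in the SRF mice without overlap, and they are given as a description with no test. The longest coding transcripts of H2-K1 and H2-D1 shared 8.79% and 14.3% of their 50-base words with other genes, so reads may have been split between class I paralogs.

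B2m encodes beta-2 microglobulin, the light chain that every classical class I molecule needs to reach the cell surface. B2m (ENSMUSG00000060802, chr2:122147686-122153083, plus strand) had 1468, 1080 and 1137 CPM in control and 1012, 1019 and 974 CPM in SRF mice. All SRF mice lay below all controls, in FPKM too, and control mouse 1, a photoreceptor-rich library, stood above the rest. The log2 fold change was -0.29 (SE 0.14, interval -0.63 to 0.04, edgeR adjusted p = 0.778, DESeq2 adjusted p = 0.616). Without control mouse 1 it was -0.15. The controls varied by 17.1% (coefficient of variation) and the SRF mice by 2.43%. Counting H2-K1, 2 of the 10 genes had groups that did not overlap in CPM, both lower in SRF, beside 13.1% of all genes (6.71% higher and 6.43% lower in SRF). The B2m to heavy chain ratio, H2-K1 plus H2-D1 in FPKM, was 2.48, 2.05 and 2.14 in control and 1.82, 1.8 and 1.93 in SRF mice, again a description with no test.

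Tap1 and Tap2 are the subunits of the peptide transporter. Tap1 (ENSMUSG00000037321, chr17:34187553-34197225, plus strand) had 24, 19.5 and 27.2 CPM in control and 28.9, 25 and 26.2 CPM in SRF mice. The groups overlapped, and control mouse 2 was lowest. Its log2 fold change was 0.18 (SE 0.16, interval -0.19 to 0.55), and it was 0.06 without control mouse 2 and 0.30 without control mouse 3. Tap2 (ENSMUSG00000024339, chr17:34203527-34216321, plus strand) had 30.1, 30.7 and 35.5 CPM in control and 33.3, 35.5 and 32.5 CPM in SRF mice, overlapping, with a log2 fold change of 0.07 (SE 0.12, interval -0.21 to 0.35). By edgeR the unadjusted p was 0.284 for Tap1 and 0.565 for Tap2. The Tap2 to Tap1 ratio, in FPKM, lay between 0.987 and 1.35 over all libraries.

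Tapbp encodes tapasin, which bridges TAP and the empty heavy chain. Tapbp (ENSMUSG00000024308, chr17:33915899-33929292, plus strand) had 196, 271 and 327 CPM in control and 255, 304 and 316 CPM in SRF mice. The control mice alone spanned a wider range than the SRF mice, from the photoreceptor-rich control mouse 1 at the bottom to control mouse 3 at the top. The log2 fold change was 0.14 (SE 0.20, interval -0.33 to 0.61), and without control mouse 1 it was -0.04. Tapbp overlaps Zbtb22 by 3422 bases on the same strand, and the stranding of the libraries is not given in the sources used here.

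Psmb8, Psmb9 and Psmb10 encode the catalytic subunits of the immunoproteasome. Psmb8 (ENSMUSG00000024338, chr17:34197721-34201454, plus strand) had 61.3, 62.9 and 70.4 CPM in control and 74.4, 68.4 and 58.4 CPM in SRF mice. Psmb9 (ENSMUSG00000096727, chr17:34181987-34187764, minus strand) had 24.4, 20 and 18.4 CPM in control and 21, 19.3 and 17.4 CPM in SRF mice. Both sets of groups overlapped, and in each SRF mouse 3 was the lowest library. Their log2 fold changes were 0.05 (SE 0.13, interval -0.26 to 0.36) and -0.12 (SE 0.16, interval -0.49 to 0.26). Psmb10 (ENSMUSG00000031897, chr8:105935735-105938444, minus strand) had 44.3, 43.7 and 34.9 CPM in control and 55.3, 44.8 and 35.6 CPM in SRF mice. Its log2 fold change was 0.14 (SE 0.19, interval -0.30 to 0.59), with SRF mouse 1 highest and control mouse 3 lowest. By edgeR the unadjusted p was 0.727 for Psmb8, 0.476 for Psmb9 and 0.469 for Psmb10. The Tap1 and Psmb9 loci overlap by 212 bases on opposite strands.

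Immunoproteasome subunits take the places of constitutive ones, so each was also set against its partner in the same library. The Psmb8 to Psmb5 ratio, in FPKM, was 0.278, 0.302 and 0.4 in control and 0.379, 0.421 and 0.376 in SRF mice. The groups overlapped, with means of 0.327 ± 0.065 and 0.392 ± 0.025 (SD, n = 3 each, exact permutation test, two-sided, p = 0.3). Psmb9 to Psmb6 had means of 0.0345 ± 0.004 and 0.0367 ± 0.00059 (n = 3 each, exact permutation p = 0.4). Psmb10 to Psmb7 had 0.309 ± 0.021 and 0.382 ± 0.056 (n = 3 each, exact permutation p = 0.2). After Benjamini-Hochberg adjustment over the 3 ratios each exact p was 0.4, and 3 mice against 3 cannot go under 0.1. All 3 log2 differences, 0.28, 0.10 and 0.30, were above 0. Of the 50-base words of Psmb5, 57.1% recur in other genes, mostly in a pseudogene, and of Psmb7 28.1%, in the overlapping Nek6.

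**Figure D2:**
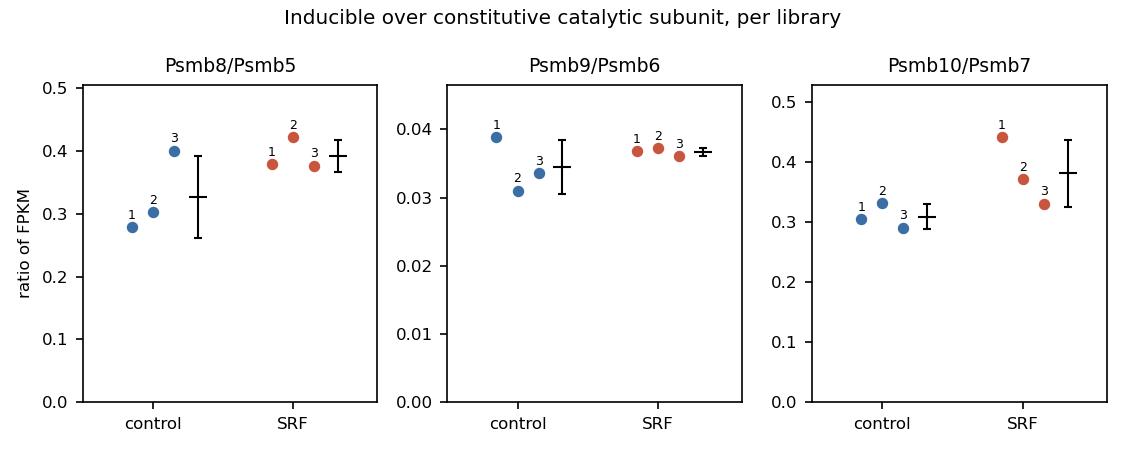
FPKM ratio of each immunoproteasome subunit to its constitutive partner in each library, with mouse numbers beside the points and bars for the mean ± SD of 3 mice per group. The groups overlap in all 3 panels, and the SRF mean is the higher in each.

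The constitutive subunits themselves were lower in SRF on average without passing the test. Psmb5, Psmb6 and Psmb7 had log2 fold changes of -0.26 (SE 0.13), -0.16 (SE 0.13) and -0.17 (SE 0.12). Of 11 other core subunits, 11 had values below 0, where 50.3% of all genes were above 0, with a median of -0.15, and edgeR and DESeq2 called none (0 at an unadjusted edgeR p under 0.05). In CPM the groups did not overlap for 5 of these 11, lower in SRF, beside 6.43% of all genes in that direction. In FPKM only Psma1 among them stayed without overlap. Psmb1 (-0.22) and Psmb3 (-0.20) had the smallest p-values. Of 8 activator and assembly genes, 3 were above and 5 below 0, with Psme1, a subunit of the activator cap, at -0.08 and Psme2, its partner, at -0.04. Summed, the immunoproteasome to constitutive ratio in FPKM was 0.135, 0.134 and 0.154 in control and 0.168, 0.169 and 0.156 in SRF mice, which do not overlap, and no test was made over a sum of the genes.

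Nlrc5, the transactivator, was the least abundant of the 10. Nlrc5 (ENSMUSG00000074151, chr8:94434356-94527272, plus strand) had 5.21, 7.81 and 4.38 CPM in control and 7.73, 3.06 and 5.43 CPM in SRF mice, from 55 to 144 counts. The groups overlapped widely, and the highest library was 2.55 times the lowest, the widest spread of the 10. Its log2 fold change was -0.10 (SE 0.40, interval -1.06 to 0.86, edgeR quasi-likelihood adjusted p = 1).

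**Figure D3:**
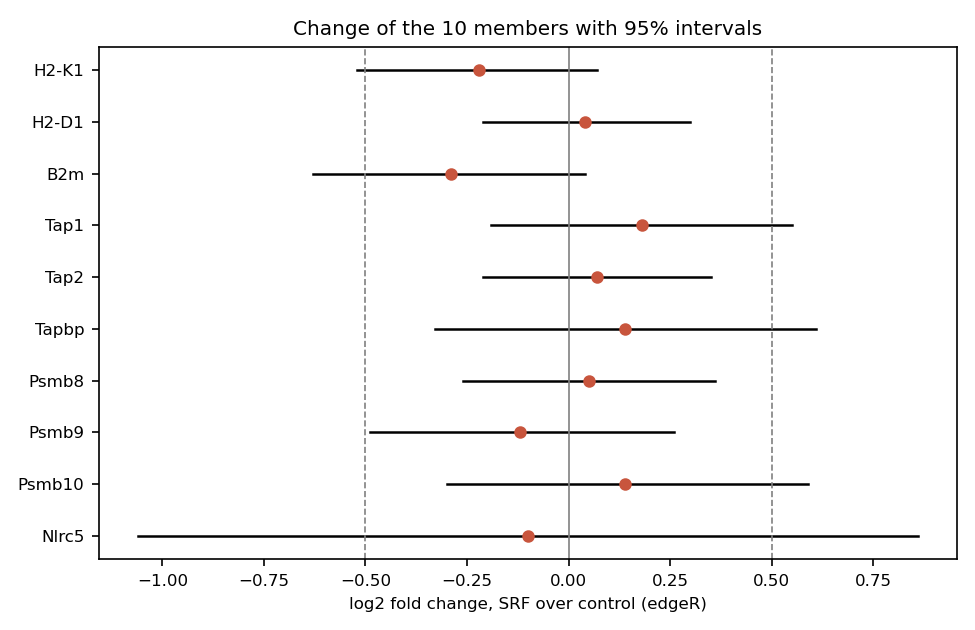
edgeR log2 fold change (SRF over control) of each class I gene with its 95% interval, dashed lines marking 0.5 either way. Every interval includes 0, and that of Nlrc5 is the widest.

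The RFX complex and other factors at class I promoters formed a list of 16 genes, of which 11 were above 0 and 5 below, with a median of 0.08. At an unadjusted edgeR p under 0.05 there were 3 of the 16, all higher in SRF, beside 7.01% of all genes. In CPM the groups did not overlap for 3 higher in SRF and 1 lower, beside 6.71% and 6.43% of all genes. Rfxap, a subunit of the RFX complex that also serves class II promoters, was the only call in this list. It was called by DESeq2 alone, which called 1.14% of all genes. Rfxap had 4.84, 4.29 and 3.21 CPM in control and 17.7, 10.5 and 8.4 CPM in SRF mice. All SRF mice were above all controls, with a log2 fold change of 1.57 (SE 0.34, interval 0.77 to 2.37, DESeq2 adjusted p = 0.00551, edgeR adjusted p = 0.303). The call held in 2 of 6 fits with 1 library left out: it was lost without SRF mouse 1, SRF mouse 2, control mouse 2 or control mouse 3 (highest DESeq2 adjusted p 0.0783). Rfxap is in the study's own list of changed genes, drawn from these same counts, which is therefore not independent evidence. Its partners Rfx5 (0.14, SE 0.26) and Rfxank (0.04, SE 0.16) did not pass. Irf1, an interferon-induced factor, had a log2 fold change of -0.09 (SE 0.14). Irf8, a factor of myeloid cells, had 20.1, 23 and 22 CPM in control and 28.5, 38.1 and 28.3 CPM in SRF mice. The Irf8 groups did not overlap (log2 fold change 0.54, SE 0.16, edgeR adjusted p = 0.441). Irf8 overlaps Gm20388 on the same strand over its full length, 20337 bases, and how reads were split between them is uncertain. Nfkb1 had a log2 fold change of 0.41 (SE 0.13).

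Of 24 interferon-stimulated genes 21 were tested, 14 above and 7 below 0, with a median of 0.06, and none was called by edgeR or DESeq2, with 0 at an unadjusted edgeR p under 0.05. Ifit1 had 0.28, Oas1a 0.45 and Ifit3 0.20, the 3 with the smallest p-values. Of 9 receptor and kinase genes 8 were above 0 (median 0.12), and edgeR and DESeq2 called none. At an unadjusted edgeR p under 0.05 there was 1 of the 9, beside 7.01% of all genes. In CPM the groups did not overlap for 3, higher in SRF, beside 6.71% of all genes in that direction. Socs1, a feedback inhibitor of JAK kinases, had 5.43, 5.86 and 6.8 CPM in control and 11, 12.4 and 8.18 CPM in SRF mice. All SRF mice were above all controls, with a log2 fold change of 0.80 (SE 0.23, edgeR adjusted p = 0.451), which did not pass.

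Of 16 genes for peptide loading, folding and trimming, 7 were above and 9 below 0 (median -0.01). Sec61a1, of the protein translocation channel, had 0.25 (SE 0.13), Uggt1, a folding sensor, 0.19 (SE 0.11) and Calr, the chaperone calreticulin, 0.18 (SE 0.16). None of the 16 was called by edgeR or DESeq2, with 0 at an unadjusted edgeR p under 0.05.

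Among 15 other class I and class I-like heavy chains listed, 11 were tested, 6 above and 5 below 0 (median 0.00), and none was called by edgeR or DESeq2, with 1 at an unadjusted edgeR p under 0.05. H2-Q7, a non-classical heavy chain, had 10.6, 7.11 and 8.22 CPM in control and 3.78, 4.9 and 4.26 CPM in SRF mice. All SRF mice lay below all controls, with a log2 fold change of -1.0 (SE 0.25, interval -1.60 to -0.40, edgeR unadjusted p = 0.0056, edgeR adjusted p = 0.407, DESeq2 adjusted p = 0.076). H2-Q6 had 15.3, 9.93 and 12.6 CPM in control and 10.3, 5.01 and 8.85 CPM in SRF mice, overlapping (log2 fold change -0.64, SE 0.31). H2-Q6 and H2-Q7 share 35% and 34.9% of their 50-base words with other genes, each most often with the other, so how reads were split between them is uncertain. H2-T23 had 0.13 and H2-T22 -0.11, and Fcgrt, the neonatal Fc receptor, had 0.25 (SE 0.14).

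Of 9 receptors that read class I or belong to the same receptor families, 8 were listed and 3 tested. The median log2 fold change of the 3 was 1.06. DESeq2 called 2 of them, beside 1.14% of all genes, while edgeR called none. All 3 had an unadjusted edgeR p under 0.05, beside 7.01% of all genes. Pirb, an inhibitory receptor of myeloid cells that binds class I, had 8.11, 7.87 and 6.34 CPM in control and 11.1, 20.7 and 18.8 CPM in SRF mice. All SRF mice were above all controls, with a log2 fold change of 1.18 (SE 0.27, interval 0.54 to 1.82, DESeq2 adjusted p = 0.0182, edgeR adjusted p = 0.34). The DESeq2 call held in 2 of 6 fits with 1 library left out, and was lost without SRF mouse 2, SRF mouse 3, control mouse 2 or control mouse 3, with a highest adjusted p of 0.449. Lilr4b, a related immunoglobulin-like receptor, had 8.49, 8.35 and 11.1 CPM in control and 15, 23 and 20.5 CPM in SRF mice. Its log2 fold change was 1.06 (SE 0.22, DESeq2 adjusted p = 0.0124, edgeR adjusted p = 0.298), and the call was lost without SRF mouse 2, control mouse 1 or control mouse 2. Lilrb4a, close to it, had 0.69 (SE 0.22) and passed neither tool. Lilr4b and Lilrb4a overlap Gm49339 on the same strand over their full lengths, 6072 and 5656 bases. Gm49339 is itself among the study's most up-regulated genes, and how reads were split among these genes is uncertain. Pirb and Lilr4b are in the study's list of changed genes from these counts. Macrophage markers were higher in SRF for 14 of 15 genes. Lyz2 had a log2 fold change of 1.49 and C1qb 0.90, while Csf1r had -0.03. The part of these markers in the receptor values was not tested. Cd8a and Cd8b1, the co-receptor chains of CD8 T cells, belong to the same receptor list and, under the filter on low counts, were not tested. Cd8a had 2.01, 0.76 and 0.793 CPM in control and 0.162, 0.111 and 0.728 CPM in SRF mice, and Cd8b1 had 1.86, 1.68 and 1.34 CPM in control and 0.757, 0.668 and 0.728 CPM in SRF mice. Both were lower in all SRF mice than in any control, opposite in direction to the 3 receptors tested, and the Cd8a values of SRF mice 1 and 2 rest on 3 and 2 counts. At the border, Cd8a had 14 counts in control mouse 2 and 13 in SRF mouse 3. Klrk1, Klrd1 and Cd160, also not tested, overlapped between groups. Their means were 1.75, 0.57 and 0.374 CPM in control and 2.11, 0.384 and 0.184 CPM in SRF mice, so Klrk1 was the higher in SRF.

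**Figure D4:**
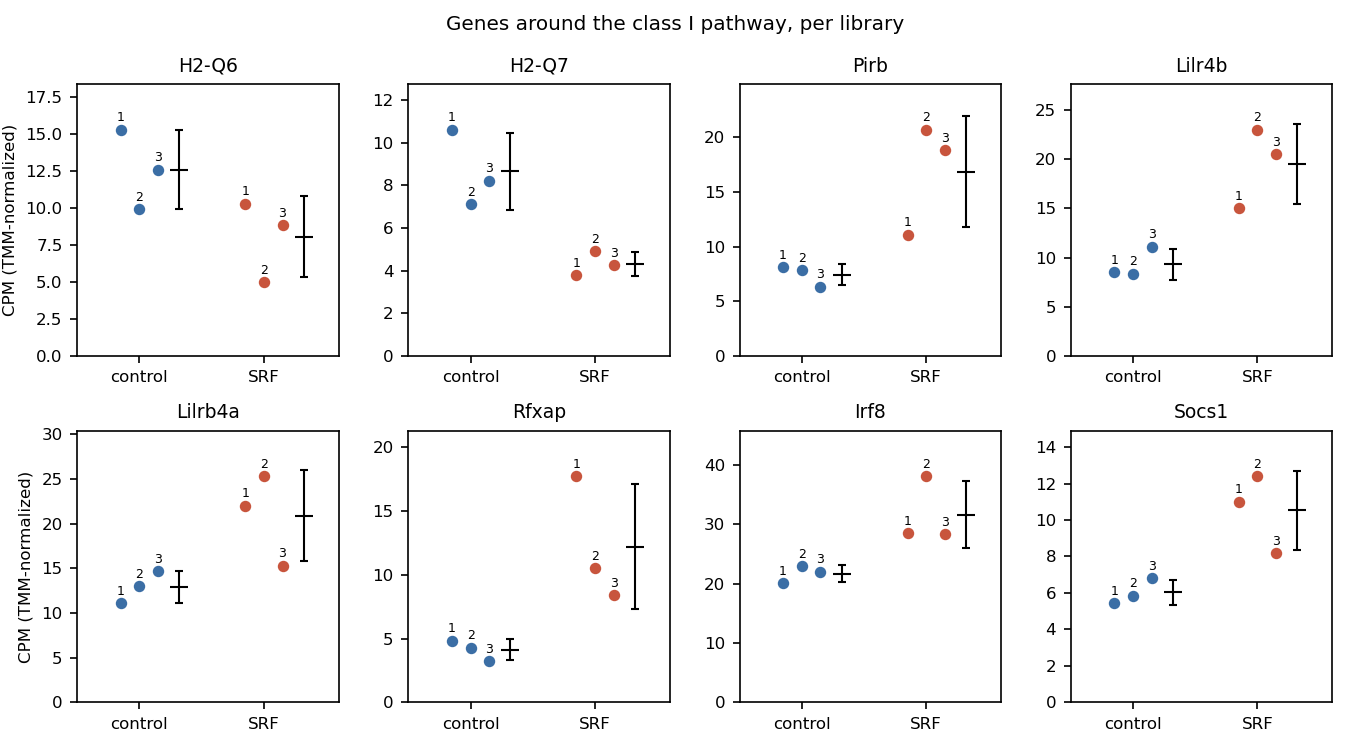
CPM per library of genes around the class I pathway, with mouse numbers beside the points and bars for the mean ± SD of 3 mice per group. SRF mice lie above controls for Rfxap, Pirb, Lilr4b, Lilrb4a, Irf8 and Socs1 and below for H2-Q7, while H2-Q6 overlaps. The genes shown had among the smallest p-values of their lists, so separation partly follows from that choice.

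Class II presentation, the neighbouring pathway, gives a comparison by its own values. Of 11 genes 10 were tested, 8 above and 2 below 0 (median 0.23). DESeq2 called 1, beside 1.14% of all genes, and edgeR called none. At an unadjusted edgeR p under 0.05 there was 1, beside 7.01% of all genes. In CPM the groups did not overlap for 4, higher in SRF, beside 6.71% of all genes in that direction. Ctss, the protease that trims the class II invariant chain, had 172, 178 and 191 CPM in control and 447, 678 and 531 CPM in SRF mice. All SRF mice were above all controls, with a log2 fold change of 1.61 (SE 0.17, DESeq2 adjusted p = 2.04e-15, edgeR adjusted p = 0.106), and the DESeq2 call held in 6 of 6 fits with 1 library left out. Cd74, the invariant chain, had 510, 530 and 649 CPM in control and 677, 680 and 700 CPM in SRF mice (log2 fold change 0.28, SE 0.13), which did not pass. Ctss is in the study's list of changed genes as well. The difference between the class I and class II lists was not tested.

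**Figure D5:**
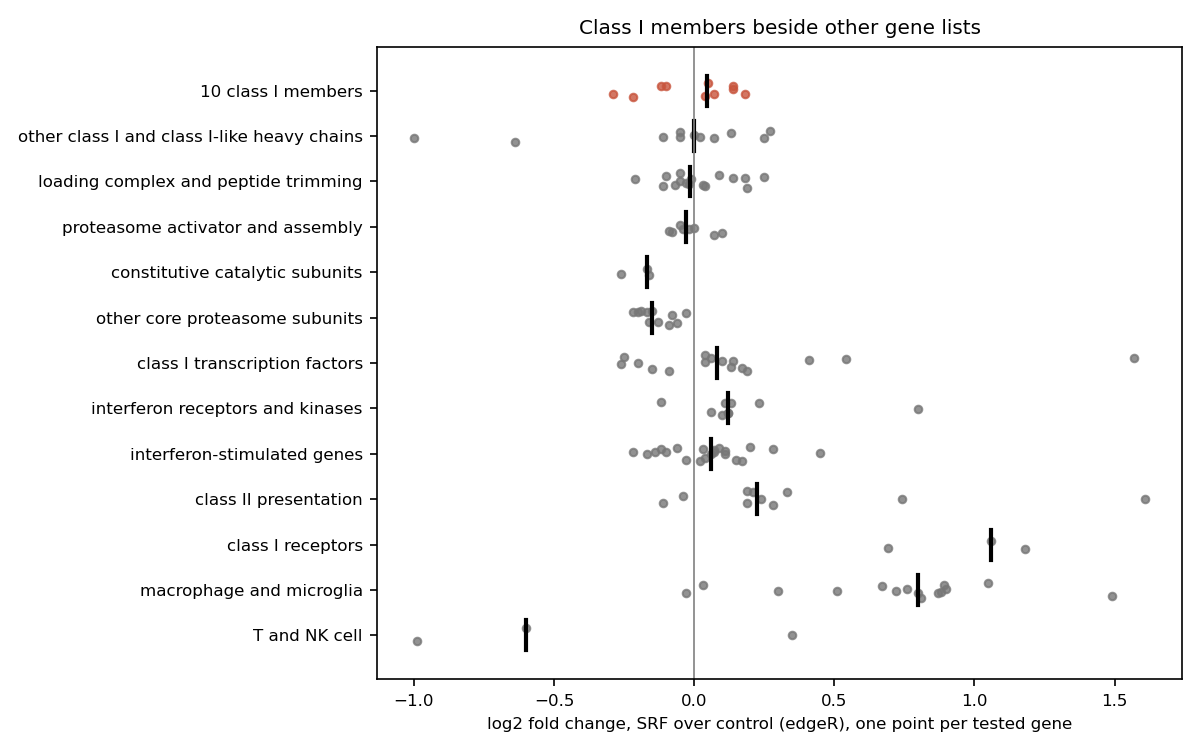
edgeR log2 fold changes (SRF over control) of the genes of each list, 1 point per gene and a black bar at the median. The 10 class I members centre at 0.05, and the macrophage list at 0.80.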

How the data were processed

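RNA-seq of RPE-choroid from 3 control and 3 SRF mice was analysed, with the group and mouse number taken from the sample labels. The authors filtered reads with FASTP, counted reads on genes with StringTie and deposited raw counts and FPKM values for each library. The aligner and the stranding are not given in the sources used here. The 15663 identifiers were matched to GENCODE M21 on GRCm38 (15659 found). The members and the lists were chosen with earlier results of these data known, and the motif letters after the promoters had been read.

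Following the study's methods, a gene was tested if over 50 counts were present in 2 or more libraries (13454 genes, 2209 not tested). The fit used edgeR 4.0.16 (R 4.3.3), with the TMM factors. The quasi-likelihood test with its installed default form (legacy = TRUE) and Benjamini-Hochberg adjustment over all tested genes were used. TMM factors also scale the CPM values, SDs are over 3 mice, and intervals cover 95%. Subunit ratios of the deposited FPKM values were tested by exact permutation, two-sided. Samples are separate mice. The edgeR p-values set the group difference against the spread between mice, estimated with information from all genes tested. Permutation p-values set the group difference against those obtained after relabelling the mice. Fits were tested first on simulated data. Named genes were the 10 members, 10 preset proteasome and promoter factor genes, genes of each pathway list called by edgeR or DESeq2, up to 3 more with the smallest p, and up to 4 of each marker list by level. H2-T22, H2-T23, Cd8a, Cd8b1, Klrk1, Klrd1, Cd160 and Psma1 were added after their values were seen. The values of 1 preset gene are not reported here.

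Alternatives were DESeq2 1.42.0, its size factors, the newer quasi-likelihood form (legacy = FALSE), no filter, limma 3.58.1 on log2(FPKM + 0.1) and log2(FPKM + 1), a photoreceptor covariate, a replicate block, leaving out each library, and leaving out both photoreceptor-rich libraries. DESeq2 with each library left out was added after seeing the data.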

Additional observations from a re-analysis of the deposited data

How the results depend on the processing

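Under 15 alternative settings none of the 10 class I genes was called, and their lowest adjusted p was 0.323, without both photoreceptor-rich libraries. Their log2 fold changes ranged from -0.45 to 0.35, and 11 of 150 values changed sign. Over all genes, edgeR called 0 in the main setting. The count was 153 with DESeq2, 1 with the newer quasi-likelihood form, 2 with limma at either pseudocount, 1 without the filter, 1 with the photoreceptor covariate and 154 without both photoreceptor-rich libraries. It lay between 0 and 5 for edgeR with 1 library left out (5 without control mouse 1), and was 153, 67 and 361 for DESeq2 without SRF mouse 1, 2 or 3 and 237, 91 and 182 without control mouse 1, 2 or 3, the DESeq2 fits having been added after seeing the data. The replicate block gave 0 calls (1206 genes at an unadjusted p under 0.05, beside 943) and changed no call, and log2 differences of 0.28, 0.10 and 0.30 for the 3 subunit ratios. Same-numbered mice are different animals, and the correlations of their deviations from the group mean were -0.467, 0.501 and -0.281. With 3 mice a group, whose deviations cancel out, these values cannot show whether same-numbered libraries shared a preparation. On limma's 2 scales, at pseudocounts 0.1 and 1, Nlrc5 reversed to 0.07 and 0.02, Psme4 to 0.04 on both and Csf1r to 0.05 on both. Without both photoreceptor-rich libraries Tapbp reversed to -0.10, Psmb9 to 0.07, Psme1 to 0.05, Psme2 to 0.06, Rfx5 to -0.01, Psme4 to 0.07 and Ttr to 0.07. With 1 library left out, edgeR values ranged from -0.04 to 0.14 for Psmb8, -0.03 to 0.29 for Psmb10, -0.45 to 0.18 for Nlrc5, -0.04 to 0.32 for Tapbp, -0.21 to 0.00 for Psmb9, -0.00 to 0.10 for H2-D1, -0.08 to 0.15 for Rfxank, -0.09 to 0.03 for Csf1r, -0.22 to 0.06 for Psme1, -0.18 to 0.10 for Psme2, -0.09 to 0.27 for Rfx5, -0.23 to 0.06 for Psme4, -0.15 to 0.01 for Irf1 and -0.01 to 0.20 for Psmg1. The cause of these changes was not tested. Without both photoreceptor-rich libraries edgeR also called Rfxap (adjusted p = 0.0312), Ctss (adjusted p = 0.0116), Lyz2, C1qb and C1qc. The median standard error of a log2 fold change was 0.19 over all genes tested, and changes several times larger did not pass edgeR with 3 mice a group.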

Other observations

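T and NK cell markers summed to 35.3 to 40 CPM in control and 22.3 to 25.9 CPM in SRF mice, and the groups did not overlap. Of 19 such genes listed, 3 passed the filter on low counts, with none called by edgeR or DESeq2 and 1 at an unadjusted edgeR p under 0.05. Nkg7, a granule protein of cytotoxic lymphocytes, had 6.18, 6.56 and 6.34 CPM in control and 2.76, 3.79 and 3.02 CPM in SRF mice (log2 fold change -0.99, SE 0.26, edgeR adjusted p = 0.41, DESeq2 adjusted p = 0.0994). Lck had a log2 fold change of -0.60 (SE 0.28). Cd4 went the other way, with 0.35 (SE 0.43) and overlapping groups. B cell markers summed to 9.22 to 15.9 CPM in control and 14.8 to 22.5 CPM in SRF mice, and dendritic cell markers to 32 to 38.1 and 30.8 to 40.7 CPM, both overlapping. Endothelial genes had a median log2 fold change of 0.03, melanocyte genes of 0.11 and fibroblast genes of 0.54. The fibroblast sums overlapped, with 4315 to 10072 CPM in control and 6626 to 11036 CPM in SRF mice. None of the 6 fibroblast genes was called by edgeR or DESeq2, and 1 had an unadjusted edgeR p under 0.05.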
